A study of Mus musculus with 6 samples.

Results

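The genes that encode histones and the basic proteins that replace them in sperm nuclei were followed in the testis transcriptome of mice with a Sertoli cell deletion of Ptbp1. Members were the rows of the authors' deposited gene table whose symbol began with Hist and a cluster number, H1f, H2af, H2al, H2bf, H3f or H4f, or was Hils1, Tnp1, Tnp2, Prm1, Prm2 or Prm3, without H2afx. These were 115 of 55331 rows. The Ptbp1 cKO group was Ptbp1fl/fl; Amh-Cre+/- and the control group Ptbp1fl/fl, so both carried floxed alleles of Ptbp1, the gene of an RNA-binding splicing regulator, and only the Ptbp1 cKO group carried a Cre recombinase driven in Sertoli cells by the Amh promoter. Polyadenylated RNA of whole testes at an age of 35 days was sequenced from 3 Ptbp1 cKO and 3 control libraries of mixed strain. The study asked what PTBP1 does in Sertoli cells, the somatic cells that carry the germ cells. Many of the members are transcribed mainly in germ cells, in which the Amh promoter is not known to be active. With no group that had the transgene alone, the deletion and Amh-Cre cannot be told apart. Whether the libraries are separate animals is not in the labels.

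Histones package DNA into nucleosomes. The replication-dependent genes, most of them in clusters of short genes without introns, are transcribed in S phase, and their mRNAs usually end in a conserved stem-loop in place of a poly(A) tail. Replacement variants are made outside S phase from polyadenylated mRNAs. Male germ cells add testis-specific variants in spermatocytes and round spermatids, and in elongating spermatids nearly all histones give way first to transition proteins and then to protamines, small arginine-rich proteins that compact sperm DNA.

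The deposited table holds 1 FPKM value (fragments per length of transcript and per mapped fragments) for each group and no value for each library, so no spread could be given and each FPKM below is the authors' group value. Steps between low values put 1 FPKM, at 1 kb of effective length, at about 204 fragments over the Ptbp1 cKO group and 223 over the control group. Ptbp1 itself had 46.7 FPKM in Ptbp1 cKO and 50.0 FPKM in control (log2 fold change -0.10, q = 0.999 in the authors' deposited table); in whole testis this level does not check the genotype. Markers of Sertoli cells (12 of 12), spermatogonia (7 of 7), spermatocytes (10 of 10) and round spermatids (9 of 9) were all measured and tested, so the main cell types of a testis were present. Epididymal secretory genes were nearly absent from control, with Crisp1 at 5.90 FPKM in Ptbp1 cKO and 0.0482 FPKM in control, and Defb26 at 0.823 FPKM in Ptbp1 cKO and listed at 0 in control; both were called as higher in the authors' deposited table (q = 0.00848 each). Of the other marker lists, calls in the authors' deposited table were all higher in Ptbp1 cKO: Clu of Sertoli cells (1199 FPKM in Ptbp1 cKO, 853.6 FPKM in control), Insl3 of Leydig cells (1049 FPKM in Ptbp1 cKO, 749.6 FPKM in control), Uchl1 (54.7 FPKM in Ptbp1 cKO, 40.3 FPKM in control) and Kit (4.57 FPKM in Ptbp1 cKO, 3.001 FPKM in control) of spermatogonia, and C1qb of leukocytes (16.8 FPKM in Ptbp1 cKO, 11.8 FPKM in control, q = 0.0202). The most abundant gene did not pass in the lists for spermatocytes (Hspa2, 606.6 FPKM in Ptbp1 cKO, 636.7 FPKM in control), peritubular myoid cells (Actg2, 154.4 FPKM in Ptbp1 cKO, 136.5 FPKM in control), endothelium (Egfl7, 4.57 FPKM in Ptbp1 cKO, 3.86 FPKM in control) and blood (Hbb-bs, 8.40 FPKM in Ptbp1 cKO, 5.85 FPKM in control). The part of other cell types in the values of the members was not tested.

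Of the 115 members, 62 were tested by Cuffdiff in the authors' deposited table, 52 were marked as not tested and Prm2 was marked as having too much data (HIDATA). In the authors' deposited table no member was higher at q under 0.05 and 1, the H2A variant H2al3, was lower in Ptbp1 cKO, while over all 22048 tested genes 1.16% were called, 0.458% higher and 0.703% lower. A single call among 62 members lies near these shares and is no result about the members as a set. At an unadjusted p under 0.05 in the authors' deposited table, 3 members were higher (Prm1, Hist1h2al and Hist2h4) and 7 lower (H2al3, Hist1h4a, Hist1h2bp, H2al1o, H2al1a, Hist1h1t and Hist1h3a), against 4.38% higher and 4.59% lower, 8.98% in all, of the tested genes. The FPKM was higher in Ptbp1 cKO for 20 tested members and lower for 42, whereas all tested genes split into 11227 higher and 10821 lower. The median difference in log2(FPKM + 1), Ptbp1 cKO minus control, was -0.05 over the 71 members with at least 0.1 FPKM in a group and 0.00448 over all genes so filtered. In whole testis, fewer cells of a type and less RNA per cell cannot be told apart, and this holds for every value below.

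The sperm nuclear basic proteins were by far the most abundant members. Tnp1, Prm1 and Tnp2 ranked 1, 2 and 3 by FPKM among all genes in both groups, leaving aside genes such as Prm2 that were listed at 0 with too much data. Tnp1 (ENSMUSG00000026182.6, chr1:73015074-73015909 on mm10, the build of all positions here), which encodes transition protein 1, had 18244 FPKM in Ptbp1 cKO and 19773 FPKM in control. Tnp2 (ENSMUSG00000043050.8, chr16:10787936-10788660), for transition protein 2, had 10870 FPKM in Ptbp1 cKO and 10344 FPKM in control. The log2 fold change in the authors' deposited table was -0.12 for Tnp1 (q = 0.892) and 0.07 for Tnp2 (q = 0.999), so neither transition protein gene passed the test. Prm1 (ENSMUSG00000022501.6, chr16:10796326-10805839), which encodes protamine 1, had 16362 FPKM in Ptbp1 cKO and 13135 FPKM in control. This log2 fold change of 0.32 had p = 0.0007 and q = 0.0551 in the authors' deposited table, just outside the threshold. Prm3, an intronless gene of the same cluster whose product is cytoplasmic in mouse, had 1003 FPKM in Ptbp1 cKO and 1023 FPKM in control (log2 fold change -0.03 in the authors' deposited table).

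Prm2 (ENSMUSG00000038015.6, chr16:10791380-10796134), for protamine 2, was listed at 0 FPKM in both groups with status HIDATA, and such a 0 can be a failed estimate, so no level is given for it. By rising coordinate, Tnp2, Prm3, Prm2 and Prm1 lie in this order on chromosome 16, all on the minus strand. The gaps between their outermost annotated bounds were 1844, 465 and 191 bases. The RefSeq start of Prm2 lies well inside its annotated gene, so the gap of 191 bases holds only for the longest annotation. The ratio of FPKM, per length, of Prm1 to Tnp2 was 1.51 in Ptbp1 cKO and 1.27 in control, and that of Prm1 to Tnp1 was 0.897 in Ptbp1 cKO and 0.664 in control. Protamine mRNA is stored in round spermatids and translated in elongating ones, and the genes listed as elongating spermatid markers were mostly higher as well. Of the 8 tested elongating spermatid markers 7 had a higher FPKM in Ptbp1 cKO, with a summed level of 12693 FPKM in Ptbp1 cKO and 11941 FPKM in control, of which Smcp alone had 5713 FPKM in Ptbp1 cKO and 5235 FPKM in control. Ldhc went the other way, at 2030 FPKM in Ptbp1 cKO and 2333 FPKM in control (p = 0.037 in the authors' deposited table), and is part of both sums. None of the 8 markers passed q under 0.05, and Odf2 of the same list was listed at 0 with too much data. The part of these markers in the Prm1 value was not tested. The 4 measured genes made up 6.48% of all FPKM in Ptbp1 cKO and 5.98% in control, and the remaining members 0.353% in Ptbp1 cKO and 0.356% in control.

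**Figure D1:**
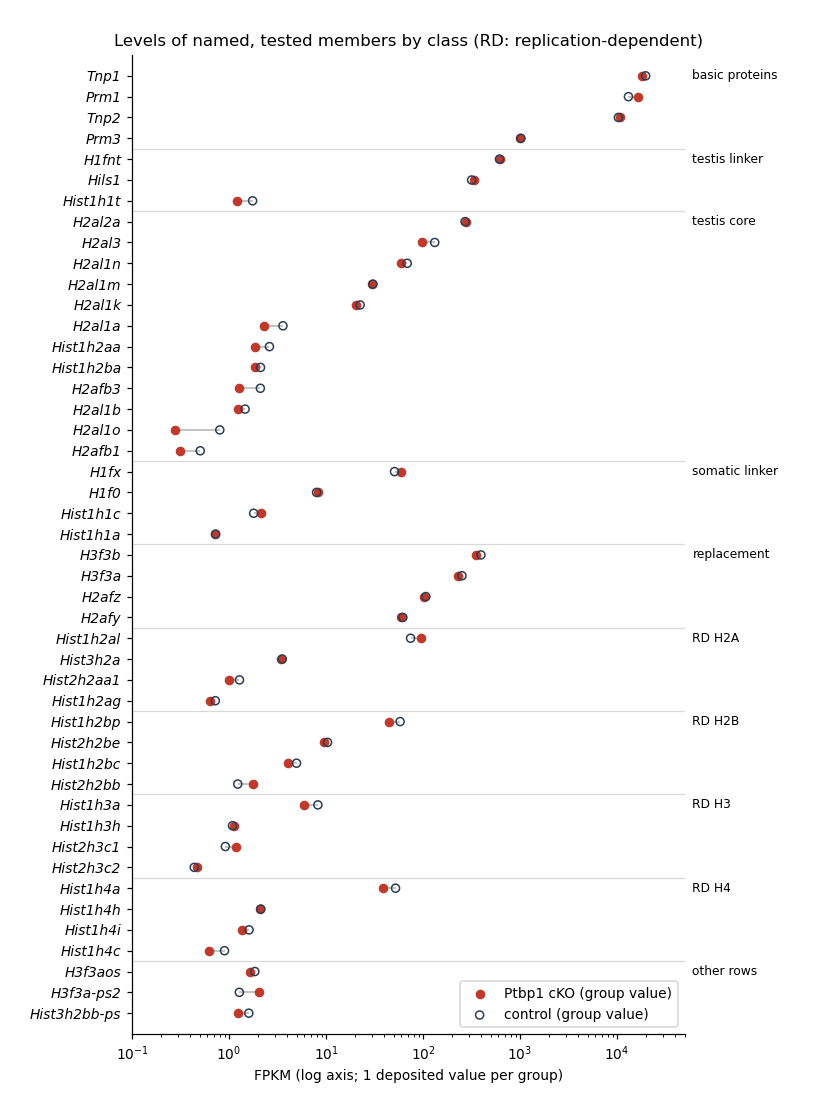
FPKM of the named, tested members (log axis), grouped by class from top to bottom. Filled red points are the Ptbp1 cKO group value and open points the control group value, with no spread because the table holds 1 value per group. Tnp1, Prm1 and Tnp2 lie far above the rest in both groups, with Prm3 next, and most pairs of points nearly coincide.

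The sequences just upstream of the 3 most abundant genes and of Prm2 are shown because short distance to the start and TATA-like and CRE-like elements are the known features of promoters active in spermatids. Each line holds the 120 bases before the RefSeq start (GRCm38.p6), 5' to 3' on the gene's strand; capitals mark TGANNTCA, the frame of a cyclic AMP response element, and TATAAA or TATATA on either strand, overlapping matches being merged.
Tnp1, chr1:73015900-73016019, minus strand: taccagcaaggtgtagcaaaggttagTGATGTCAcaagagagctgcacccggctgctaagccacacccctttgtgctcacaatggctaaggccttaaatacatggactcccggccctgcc
Prm1, chr16:10796824-10796943, minus strand: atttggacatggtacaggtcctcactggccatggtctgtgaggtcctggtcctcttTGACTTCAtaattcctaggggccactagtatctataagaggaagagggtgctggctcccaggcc
Tnp2, chr16:10788656-10788775, minus strand: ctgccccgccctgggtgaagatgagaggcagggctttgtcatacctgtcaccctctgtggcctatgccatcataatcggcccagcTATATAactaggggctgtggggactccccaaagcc
Prm2, chr16:10792106-10792225, minus strand: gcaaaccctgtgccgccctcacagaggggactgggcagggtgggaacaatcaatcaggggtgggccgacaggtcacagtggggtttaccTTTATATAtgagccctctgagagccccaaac
In the 250 bases before the start, TGANNTCA occurred in 3 of 5 promoters of this class and in 11.9% of 32851 RefSeq promoters. TATATA occurred in 2 of 5, against 5.25% of all, and TATAAA in 1 of 5, against 12.4% of all. A match is a description of the letters and not a bound site.

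No testis linker histone passed the test. H1fnt, the linker variant of round spermatids also called H1T2, had 621.8 FPKM in Ptbp1 cKO and 614.5 FPKM in control, and Hils1, the linker-like protein of elongating spermatids, had 338.1 FPKM in Ptbp1 cKO and 317.6 FPKM in control. In the authors' deposited table the log2 fold change was 0.02 for H1fnt and 0.09 for Hils1, both with q = 0.999. Hist1h1t, which encodes H1t of spermatocytes, was far lower in these polyadenylated libraries, at 1.20 FPKM in Ptbp1 cKO and 1.75 FPKM in control. Its log2 fold change of -0.54 had p = 0.0273 and q = 0.432 in the authors' deposited table and did not pass. H1fnt thus stood at 517.5 times the FPKM of Hist1h1t in Ptbp1 cKO and at 350.7 times in control. About 158 fragments in Ptbp1 cKO and 255 in control stood behind the Hist1h1t values.

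Among the testis core variants, H2al3 fell. H2al3 (ENSMUSG00000048994.2, chrX:9849703-9850255), a single-exon gene of the H2A.L family of short H2A variants that appear in spermatids, had 97.5 FPKM in Ptbp1 cKO and 132.2 FPKM in control. In the authors' deposited table the log2 fold change was -0.44 with p = 0.0004 and q = 0.0387, the value resting on about 5698 fragments in Ptbp1 cKO and 8645 in control. The call depends on how p was obtained: a normal p computed from the deposited statistic was 0.0393 and its adjusted value 0.9999, and this p called 0.0863% of all genes. No near-identical copy of H2al3 was found in the annotation. H2al2a (ENSMUSG00000062651.4, chr2:17996417-17996958) encodes H2A.L.2, which in mouse opens nucleosomes for the transition proteins. This autosomal relative had 274.5 FPKM in Ptbp1 cKO and 271.6 FPKM in control (log2 fold change 0.02, q = 0.999 in the authors' deposited table).

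The upstream sequences of H2al3 and H2al2a are given because the first fell and the second, its most abundant relative, did not pass the test. Build, length and capitals are as for the transition protein and protamine genes.
H2al3, chrX:9849583-9849702, plus strand: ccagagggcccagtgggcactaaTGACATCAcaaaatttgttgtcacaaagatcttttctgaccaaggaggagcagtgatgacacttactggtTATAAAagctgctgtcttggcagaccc
H2al2a, chr2:17996959-17997078, minus strand: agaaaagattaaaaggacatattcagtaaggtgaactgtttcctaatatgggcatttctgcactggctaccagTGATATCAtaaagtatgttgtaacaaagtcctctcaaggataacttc
Both hold TGANNTCA, with TGACATCA in H2al3 and TGATATCA in H2al2a, and H2al3 also holds TATAAA near its start. TGANNTCA occurred in 17 of the 24 promoters of testis core variants, but the copies of H2al1 share much of their upstream sequence, so these are not 17 separate occurrences.

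The other testis core variants that were tested all had q above 0.05 in the authors' deposited table, and with H2al3 they numbered 13, of which 12 had a lower FPKM in Ptbp1 cKO. Of the H2al1 genes on the X chromosome, H2al1n had 59.5 FPKM in Ptbp1 cKO and 68.8 FPKM in control, H2al1m 29.6 FPKM in Ptbp1 cKO and 30.5 FPKM in control, and H2al1k 20.6 FPKM in Ptbp1 cKO and 22.5 FPKM in control. H2al1m and H2al1k match each other at 99.6% of bases, so the share of reads given to each is uncertain. H2al1a had 2.28 FPKM in Ptbp1 cKO and 3.60 FPKM in control (log2 fold change -0.66, p = 0.0165, q = 0.339 in the authors' deposited table). H2al1o had 0.280 FPKM in Ptbp1 cKO and 0.804 FPKM in control, the largest negative log2 fold change of this class at -1.52 (p = 0.0074, q = 0.222 in the authors' deposited table). Only about 14 fragments in Ptbp1 cKO and 45 in control lay behind H2al1o. H2al1b had 1.23 FPKM in Ptbp1 cKO and 1.47 FPKM in control, and 8 of the 14 H2al1 rows were listed at 0 in both groups. Also at 0 in both groups were H2al2b and H2al2c, the members on the Y chromosome.

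The remaining testis variants were low in these polyadenylated libraries. H2afb3 and H2afb1, which encode short H2A.B variants of spermatogenic cells, match at 98.3% of bases. H2afb3 had 1.25 FPKM in Ptbp1 cKO and 2.11 FPKM in control, and H2afb1 0.309 FPKM in Ptbp1 cKO and 0.505 FPKM in control. Hist1h2aa and Hist1h2ba are a divergent gene pair of chromosome 13 for the testis H2A and H2B, known as TH2A and TH2B. Hist1h2aa had 1.87 FPKM in Ptbp1 cKO and 2.61 FPKM in control, and Hist1h2ba 1.87 FPKM in Ptbp1 cKO and 2.12 FPKM in control. Their annotated transcripts are short, at 390 and 384 bases. These values do not show how much of their mRNA lacks a poly(A) tail. H2bfm, an H2B family gene on the X chromosome, had 1.77 FPKM in Ptbp1 cKO and 2.08 FPKM in control. The class median difference in log2(FPKM + 1), Ptbp1 cKO minus control, was -0.20 over the 13 tested genes and -0.02 over all 24 rows, 11 of which were listed at 0 in both groups.

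Most of this class is X-linked. All 10 tested X-linked members had a lower FPKM in Ptbp1 cKO, with a median log2 fold change of -0.34 in the authors' deposited table, and 1 of the 10 passed q under 0.05. H2al1a, H2al1b, H2al1k and H2al1m are near-identical copies of each other, as are H2afb1 and H2afb3, so the 10 directions are not independent. X-linked genes as a whole also stood lower, with 570 of 892 tested below control, a median of -0.14 and 6.17% past q under 0.05 in the lower direction. The 52 tested autosomal members split into 20 with a higher and 32 with a lower FPKM in Ptbp1 cKO, with a median of -0.06 and no call. Round spermatid markers were mostly lower as well: 8 of 9 had a lower FPKM in Ptbp1 cKO, their sum was 1680 FPKM in Ptbp1 cKO and 1806 FPKM in control (Tex33 alone 942.1 FPKM in Ptbp1 cKO and 994.5 FPKM in control), and none passed q under 0.05 or was at 0. Their part in the H2al3 value was not tested.

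**Figure D2:**
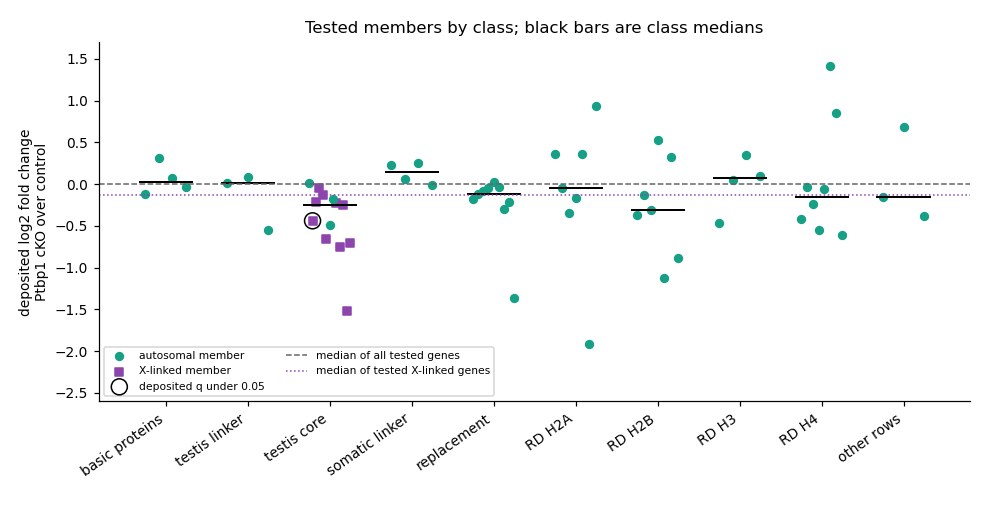
Deposited log2 fold change, Ptbp1 cKO over control, of each tested member by class (RD, replication-dependent); squares are X-linked members, black bars class medians, and the lines the medians of all tested genes and of tested X-linked genes. H2al3, circled, is the single member past q of 0.05, and all 10 X-linked squares lie below 0.

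Linker and core histones that also serve somatic cells did not pass the test. H1fx, the linker variant H1X, had 59.5 FPKM in Ptbp1 cKO and 50.9 FPKM in control (log2 fold change 0.22, q = 0.855 in the authors' deposited table), H1f0 8.32 FPKM in Ptbp1 cKO and 7.999 FPKM in control, Hist1h1c 2.14 FPKM in Ptbp1 cKO and 1.80 FPKM in control, and Hist1h1a 0.724 FPKM in Ptbp1 cKO and 0.728 FPKM in control. Sertoli cell markers had a higher FPKM in Ptbp1 cKO for 12 of 12 genes, of which 1, Clu, passed q under 0.05. Their sum was 1371 FPKM in Ptbp1 cKO and 1002 FPKM in control, and 172.6 FPKM in Ptbp1 cKO and 148.4 FPKM in control without Clu; their part in the values of these linker genes was not tested. The oocyte linker gene H1foo was not tested and stood at 0.0528 FPKM in Ptbp1 cKO and 0.0372 FPKM in control. Among the replacement variants, H3f3b and H3f3a, both for H3.3, led. H3f3b had 349.7 FPKM in Ptbp1 cKO and 396.1 FPKM in control (log2 fold change -0.18, p = 0.0756, q = 0.652 in the authors' deposited table), and H3f3a had 232.0 FPKM in Ptbp1 cKO and 252.3 FPKM in control. The ratio of H3f3b to H3f3a, 1.51 in Ptbp1 cKO and 1.57 in control, was nearly the same in both groups. H2afz, for H2A.Z, had 101.3 FPKM in Ptbp1 cKO and 107.0 FPKM in control, and H2afy, for macroH2A1, 59.9 FPKM in Ptbp1 cKO and 62.0 FPKM in control. H2afv, for a second H2A.Z form, had 24.9 FPKM in Ptbp1 cKO and 24.5 FPKM in control, and H2afj, for H2A.J, 5.15 FPKM in Ptbp1 cKO and 6.34 FPKM in control. H2afy2, for macroH2A2, had 1.95 FPKM in Ptbp1 cKO and 2.26 FPKM in control. H2afy3 and H3f3c are annotated as processed pseudogenes, and H2afy3 had 13.7 FPKM in Ptbp1 cKO and 14.05 FPKM in control and H3f3c 0.0958 FPKM in Ptbp1 cKO and 0.246 FPKM in control. Of the 9 genes of this class 8 had a lower and 1, H2afv, a higher FPKM in Ptbp1 cKO, and their log2 differences had a median of -0.12 on the log2(FPKM + 1) scale.

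Replication-dependent core histones were scarce in these polyadenylated libraries. Of 61 genes, 26 were tested, 13 reached 1 FPKM in a group and 0 passed q under 0.05, with 10 tested genes higher and 16 lower in Ptbp1 cKO. Unadjusted p in the authors' deposited table was under 0.05 for 2 higher and 3 lower genes. Over all tested genes these shares were 4.38% and 4.59%, and 1.16% passed q under 0.05. The 61 genes summed to 216.3 FPKM in Ptbp1 cKO and 225.6 FPKM in control, and 3 of them supplied most of both sums. Without Hist1h2al, whose identity is uncertain, the sums were 120.8 FPKM in Ptbp1 cKO and 151.0 FPKM in control. Hist1h2al had 95.4 FPKM in Ptbp1 cKO and 74.5 FPKM in control (log2 fold change 0.36, p = 0.0287, q = 0.436 in the authors' deposited table). Despite its name it lies outside the chromosome 13 cluster, at chr13:51202727-51203065, is annotated as a processed pseudogene and matches Hist2h2aa2 at 99.4% of bases, so reads of the H2A genes on chromosome 3 may be counted there. Hist1h2bp, an H2B gene, had 44.9 FPKM in Ptbp1 cKO and 58.1 FPKM in control (log2 fold change -0.37, p = 0.00375, q = 0.149 in the authors' deposited table). Hist1h4a, an H4 gene, had 39.1 FPKM in Ptbp1 cKO and 52.1 FPKM in control (log2 fold change -0.42, p = 0.00265, q = 0.124 in the authors' deposited table). The H3 gene Hist1h3a, which lies 622 bases from Hist1h4a on the same strand, had 5.98 FPKM in Ptbp1 cKO and 8.24 FPKM in control (log2 fold change -0.46, p = 0.0281, q = 0.434 in the authors' deposited table). Hist1h2bp, Hist1h4a and Hist1h3a thus had lower values in Ptbp1 cKO without passing the adjusted test. The other 3 tested H3 genes had higher values: Hist1h3h had 1.13 FPKM in Ptbp1 cKO and 1.09 FPKM in control, Hist2h3c1 1.17 FPKM in Ptbp1 cKO and 0.917 FPKM in control, and Hist2h3c2 0.471 FPKM in Ptbp1 cKO and 0.439 FPKM in control. S-phase markers had a lower FPKM in Ptbp1 cKO for 9 of 11 genes, among them Pcna at 54.3 FPKM in Ptbp1 cKO and 64.1 FPKM in control. Their sum was 156.6 FPKM in Ptbp1 cKO and 170.1 FPKM in control, none passed q under 0.05 or was at 0, and their part was not tested.

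Of the next most abundant tested H2B, H2A and H4 genes, all but Hist2h2bb had a lower FPKM in Ptbp1 cKO. Of the H2B genes, Hist2h2be had 9.48 FPKM in Ptbp1 cKO and 10.4 FPKM in control, Hist1h2bc 4.01 FPKM in Ptbp1 cKO and 4.97 FPKM in control, and Hist2h2bb 1.78 FPKM in Ptbp1 cKO and 1.23 FPKM in control. Of the H2A genes, Hist3h2a had 3.43 FPKM in Ptbp1 cKO and 3.54 FPKM in control, Hist2h2aa1 1.009 FPKM in Ptbp1 cKO and 1.28 FPKM in control, and Hist1h2ag 0.644 FPKM in Ptbp1 cKO and 0.723 FPKM in control. Of the H4 genes, Hist1h4h had 2.09 FPKM in Ptbp1 cKO and 2.13 FPKM in control, Hist1h4i 1.37 FPKM in Ptbp1 cKO and 1.61 FPKM in control, and Hist1h4c 0.616 FPKM in Ptbp1 cKO and 0.899 FPKM in control (p = 0.0785 in the authors' deposited table). None of these 9 passed the test. Hist2h2aa1 matches Hist2h2aa2 at 100% of aligned bases, so the share of reads given to each is uncertain. Hist2h2aa2 went the other way, at 0.444 FPKM in Ptbp1 cKO and 0.344 FPKM in control. Hist2h4, the third gene with a higher value at unadjusted p, had 0.195 FPKM in Ptbp1 cKO and 0.108 FPKM in control, about 54 fragments in Ptbp1 cKO and 33 in control (log2 fold change 0.85, p = 0.0371 in the authors' deposited table). Among the tested replication-dependent genes, Hist1h2af and Hist1h4n had the most negative and the most positive log2 fold change, each on few fragments. Hist1h2af, an H2A gene, had 0.0695 FPKM in Ptbp1 cKO and 0.262 FPKM in control, about 2 fragments in Ptbp1 cKO and 8 in control (log2 fold change -1.91, p = 0.233 in the authors' deposited table), and Hist1h4n, an H4 gene, 0.262 FPKM in Ptbp1 cKO and 0.0983 FPKM in control, about 9 fragments in Ptbp1 cKO and 4 in control (log2 fold change 1.42, p = 0.107 in the authors' deposited table). Across all classes, the 52 members that were not tested were also low, the highest being the H2B gene Hist1h2bl at 0.203 FPKM in Ptbp1 cKO and 0.0669 FPKM in control. In all, 16 members, Prm2 among them, were listed at 0 in both groups and 11 in a single group.

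**Figure D3:**
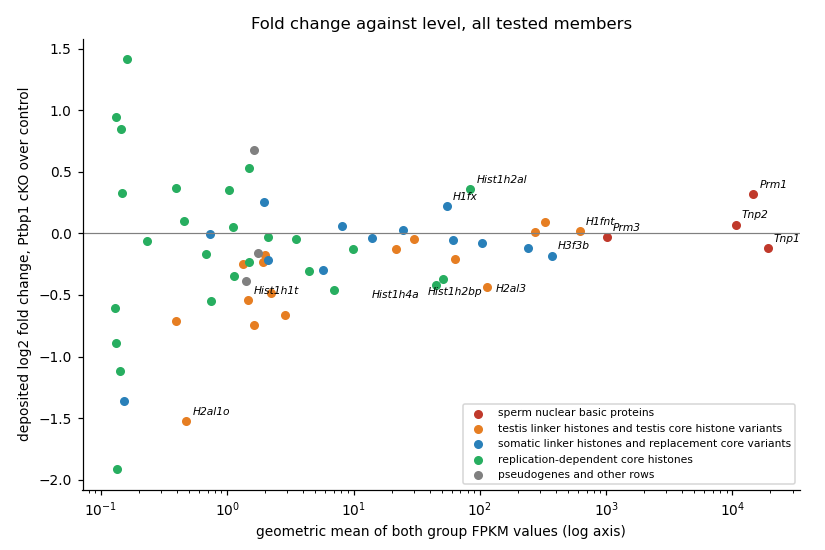
Deposited log2 fold change, Ptbp1 cKO over control, against the geometric mean of both group FPKM values (log axis) for the 62 tested members, coloured by kind of gene. Points of high level span a narrower range, with Prm1 at 0.32 and H2al3, the single call, at -0.44, and the widest spread is among genes under 1 FPKM, where few fragments were counted.

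The 3' ends of these genes bear on what a poly(A)-selected library can hold. A histone stem-loop of 16 bases, a stem of 6 pairs that starts GG around a loop of 4 bases that starts TT, was found in the annotated transcripts (GENCODE M21) of 40 of the 61 replication-dependent core genes and of 45 of all 115 members. Searched the same way, it occurred in 524 of 21827 coding genes, or 2.40%. Within the last 100 bases of a transcript it stood in 22 of the 61 core genes and in 47 coding genes, or 0.215%. The coding genes include the histone genes annotated as coding, so both shares overlap with the members. The forms below are those of an H2B, an H3 and an H4 gene with a measured level, and of Hist1h1t; they are given 5' to 3' on the gene's strand, with the stem in capitals and the loop in lower case.
Hist1h2bp, chr13:21787923-21787938, plus strand: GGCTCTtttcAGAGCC
Hist1h3a, chr13:23761890-23761905, minus strand: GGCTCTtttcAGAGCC
Hist1h4h, chr13:23531458-23531473, plus strand: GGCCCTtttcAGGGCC
Hist1h4i, chr13:22040966-22040981, minus strand: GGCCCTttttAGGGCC
Hist1h1t, chr13:23696525-23696540, plus strand: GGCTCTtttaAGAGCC
The form of Hist1h2bp and Hist1h3a was shared by 27 genes, that of Hist1h4h by 7, that of Hist1h1t by 6 and that of Hist1h4i by 2. Hist1h4a has no such site in its annotated transcript and has AATAAA, the polyadenylation hexamer, in the last 40 bases. Hist1h2bp has both. AATAAA stood in the last 40 bases of at least 1 transcript in 13 of the 61 core genes and in 68.3% of coding genes. Most core genes have a single annotated transcript, whereas many coding genes have several. Counted by transcript, 30.4% of coding transcripts held it.

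Levels overlapped widely between genes with and without the stem-loop in their annotated transcript. Some transcripts without it are annotated as short, such as Hist1h4k at 312 bases and Hist1h2bn at 381 bases. Such an annotation may stop before the stem-loop, so this split cannot separate genes that lack it from genes with a short annotation. The 40 genes with it had a median of 0.0959 FPKM in Ptbp1 cKO and 0.103 FPKM in control, and 7 of them reached 1 FPKM in a group. The highest of these was Hist1h2bp, whose 2 annotated transcripts share a single group value, so its level cannot be assigned to the stem-loop form. The 21 genes without it had a median of 0.101 FPKM in Ptbp1 cKO and 0.0669 FPKM in control, and 6 of them reached 1 FPKM. Where the annotation runs 100 bases or more past the stem-loop, as in 18 genes, the highest level was that of Hist3h2a. Trim17 overlaps Hist3h2a on the same strand, so the reads behind this level may belong to either gene. Annotated ends are not measured ends, and the group FPKM values do not show which reads carried a poly(A) tail.

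**Figure D4:**
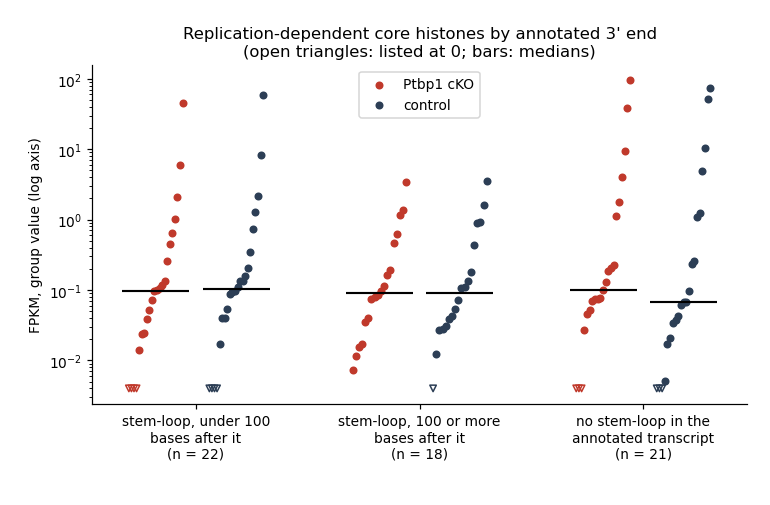
FPKM (log axis) of the 61 replication-dependent core histone genes by annotated 3' end, with Ptbp1 cKO left of control in each of 3 sets of 22, 18 and 21 genes. Points are genes, black bars medians and open triangles genes listed at 0; the medians all lie near 0.1 FPKM, and a few genes in each set reach higher levels.

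The 5 other rows were pseudogenes and an antisense gene. H3f3a-ps2 had 2.05 FPKM in Ptbp1 cKO and 1.28 FPKM in control (p = 0.0629 in the authors' deposited table) and is a near-identical copy of H3f3a. Hist3h2bb-ps had 1.23 FPKM in Ptbp1 cKO and 1.60 FPKM in control. H3f3aos, antisense to H3f3a, had 1.66 FPKM in Ptbp1 cKO and 1.85 FPKM in control. H3f3a-ps1 and H2af-ps were listed at 0 in both groups. Over all members, 48 had a near-identical copy (at least 95% identity over 80% of the transcript), 20 of them tested. An antisense gene overlapped 35 members and a gene on the same strand 10. The counting settings are not given, so the values of all these members are uncertain. Of the 43 tested members whose fragments could be estimated, 23 had fewer than 100 in a group, and differences of such genes rest on few counts.

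Genes that act on the members did not pass the test either. Over all tested genes 1.16% passed q under 0.05, and 4.38% were higher and 4.59% lower at unadjusted p under 0.05. At such a share, lists of this size hold few calls or none, so their absence is no result about the lists. In the authors' deposited table, the list for histone eviction had 0 of 26 tested genes higher and 0 lower at q under 0.05, and at unadjusted p under 0.05 only Trrap was higher. Phf7, a histone ubiquitin ligase needed for eviction in mouse spermatids, had 829.0 FPKM in Ptbp1 cKO and 877.9 FPKM in control, and Brdt, a reader of acetylated histones, 164.2 FPKM in Ptbp1 cKO and 193.2 FPKM in control. In the list for transcriptional and translational control of transition proteins and protamines 0 of 17 tested genes passed, and 0 had an unadjusted p under 0.05. Ybx2, which binds and stores protamine mRNA, had 5949 FPKM in Ptbp1 cKO and 6063 FPKM in control, and Crem, the activator of many spermatid promoters, 231.5 FPKM in Ptbp1 cKO and 260.4 FPKM in control. Pabpc1 of this list was not tested, since it had too much data in the authors' deposited table.

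In the list for histone mRNA 3' end formation and turnover 0 of 22 genes passed in the authors' deposited table, and at unadjusted p under 0.05 only Ncbp2, of the cap-binding complex, was lower. The most abundant tested gene, Ncbp1, also of that complex, had 147.7 FPKM in Ptbp1 cKO and 166.2 FPKM in control. Slbp, which binds the histone stem-loop, had 107.9 FPKM in Ptbp1 cKO and 105.9 FPKM in control. Among histone chaperones 0 of 28 passed in the authors' deposited table, and Nasp and Npm1 were lower at unadjusted p under 0.05. Nasp, which binds H3, H4 and linker histones, had 863.2 FPKM in Ptbp1 cKO and 1029 FPKM in control (log2 fold change -0.25, p = 0.0068, q = 0.214 in the authors' deposited table). The median differences of the 4 lists in log2(FPKM + 1), Ptbp1 cKO minus control, were -0.05, -0.03, -0.04 and -0.05 in the order given, leaving out Pabpc1, beside 0.00448 over all genes.

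**Figure D5:**
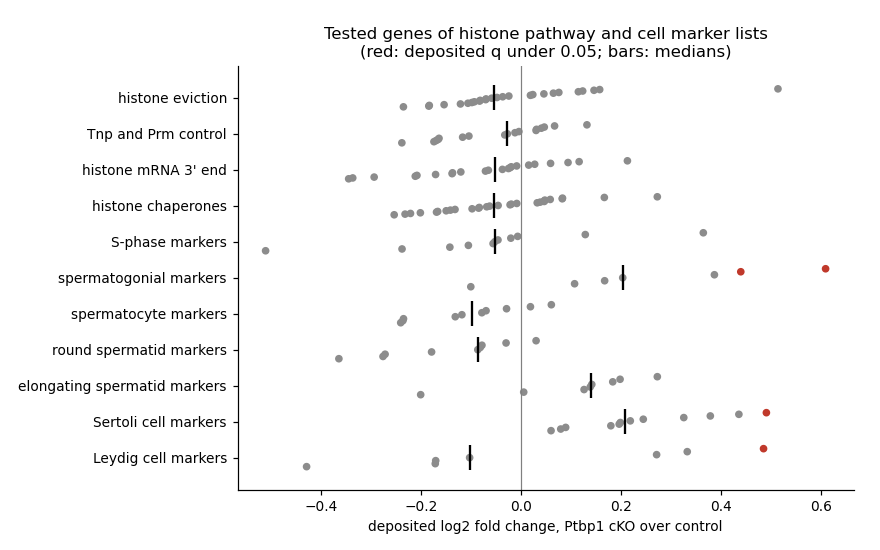
Deposited log2 fold change, Ptbp1 cKO over control, of tested genes in the 4 pathway lists and in 7 marker lists, with medians as bars. No gene of the 4 pathway lists is red (q under 0.05); the red points are Uchl1, Kit, Clu and Insl3, markers of spermatogonia, Sertoli cells and Leydig cells.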

How the data were processed

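Polyadenylated RNA of whole testes was sequenced in 3 Ptbp1 cKO and 3 control libraries, made with a stranded TruSeq kit per the labels' protocols and grouped by the library titles. Named in the submitters' processing notes are the build mm10 and the tools Cuffdiff, Cufflinks, STAR 2.6.1d, Trimmomatic 0.38 and bcl2fastq 2.20. Not given in the sources used here are the Cuffdiff version, its normalisation, strand setting and annotation, or any batch.

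The authors' deposited table gives per gene 1 FPKM for each group. It also gives the deposited log2 fold change, which equals the log2 ratio of both FPKM within 1.37e-05, and a test statistic, which is a score per the file headers. Cuffdiff's p-value and q-value are used as deposited. The q-value is Benjamini-Hochberg adjusted over 22048 tested genes; 33263 were not tested, 18 had too much data and 2 failed. Calls are q under 0.05. Without values per library no SD, leave-one-out fit or exact permutation test was made, and the p-values speak for these libraries, whose spread may be technical.

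Members and lists were chosen with earlier results of these data known, and lists are described by counts and medians (pseudocount 1, at least 0.1 FPKM in a group) with no test. Members named were every call, the transition proteins, protamines, testis linker histones, Hist1h2aa, Hist1h2ba and tested H2al and H2afb genes, the 4 most abundant tested genes of other classes, and up to 4 largest rises and falls at unadjusted p under 0.05 with at least 1 FPKM; from each list, calls and the most abundant gene. Other genes were named after their values were seen.

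Positions are 1-based from GENCODE M21, which matched all 115 members by versioned identifier. Copies were sought with BLAST 2.17.0. Fragments were estimated from low FPKM steps of single-exon genes, where 100% of 428 values in Ptbp1 cKO and 99.5% of 430 in control lay within 1% of 1 or 2 steps; they cover counting error only. The step reading and the normal p were tested on simulated data. Promoters of 102 members were matched in RefSeq (GRCm38.p6). Motifs and the stem-loop's loop letters were chosen after the sequences were seen. Alternatives were a normal p, unadjusted p, other filters and pseudocount, members without copies, centring and members without X-linked genes.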

Additional observations from a re-analysis of the deposited data

How the results depend on the processing

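In the authors' deposited table, q under 0.05 called 0 members as higher and 1 as lower in Ptbp1 cKO. At unadjusted p these counts were 3 and 7. With p-values readjusted over genes of at least 1 FPKM, 1 member was higher, Prm1 at an adjusted p of 0.0453, and H2al3 had 0.0311. With the normal p from the deposited statistic 0 were lower. Without the X-linked members, an alternative chosen after seeing the data, 0 were lower. In the pathway lists, which had 0 calls, unadjusted p gave 1 higher gene for histone eviction, 1 lower for histone mRNA 3' ends and 2 lower for chaperones. The cause of these moves is the threshold or the genes tested, by construction, except for the normal p, where the cause was not tested. The median difference of the testis core variants was -0.20 and moved to -0.0206 with no filter on low values, since genes at 0 then enter. The median of all members was -0.05, -0.12 with a pseudocount of 0.1 or at least 1 FPKM in a group, and -0.00376 with no filter. With a pseudocount of 0.1 the median of replication-dependent H2B genes was -0.22 and that of H4 genes -0.13, against -0.11 and -0.04. No class median changed sign under any alternative run, though those of the basic proteins and of the pseudogenes and other rows were 0 with no filter. Centring shifted each by 0.00448. Leaving out each library was not run, since the table has 1 value per group. No paired analysis was possible because the columns hold group values and carry no replicate number. Depth limits the members under 100 fragments.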

Other observations

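By position, the replication-dependent genes of the chromosome 13 cluster, together with the linker and testis variants named Hist1, numbered 55 members, of which 22 were tested. Of these, 5 had a higher and 17 a lower FPKM in Ptbp1 cKO in the authors' deposited table, with 4 lower at unadjusted p under 0.05 and 0 past q under 0.05. Over all tested genes 11227 had a higher and 10821 a lower FPKM in Ptbp1 cKO, and 4.38% were higher and 4.59% lower at unadjusted p under 0.05. The 10 members of the chromosome 3 cluster, named Hist2, had 7 tested genes, of which 5 had a higher and 2 a lower FPKM in Ptbp1 cKO, with 1 higher (Hist2h4) at unadjusted p under 0.05 and again 0 past q under 0.05. Clustered genes share sequence and neighbours, so these counts are not independent, and the difference between the clusters was not tested.

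CCAAT, read on both strands, occurred in the 250 bases before the start of 17 of 17 replication-dependent H2A and 15 of 15 H2B promoters with a RefSeq sequence, in 8 of 10 H3 and in 3 of 12 H4 promoters. The share of all 32851 promoters that hold it was 33.8%. Many H2A and H2B genes lie in divergent pairs whose upstream windows overlap, so a single stretch of letters can be counted for both genes of a pair.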
